A study of Mus musculus with 9 samples.

Results

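Prostaglandin E2 is a lipid mediator made from arachidonic acid, and the 8 genes described here encode enzymes that make or break it down and a pair of its receptors. They were chosen by name, with earlier results of these data known. All 8 (Ptgs1, Ptgs2, Ptges, Ptges2, Ptges3, Hpgd, Ptger2 and Ptger4) were found among the 42454 gene names of the count tables. All 8 also passed the filter on low counts, which left 18243 names. MC38 cells, which derive from a colorectal carcinoma of the mouse, were implanted into C57BL/6J mice, and the tumours were harvested 21 days after inoculation. In 4 tumours the implanted cells carried a vector (Vec, labelled WT for genotype), and in 5 tumours CD43 had been knocked out in the implanted cells (CD43-KO). CD43, encoded by Spn, is a sialylated glycoprotein found mostly on leukocytes, and the host strain was shared by both groups. Whether the knockout line was a single clone, and the age and sex of the mice, are not stated in the sources used here. Each library was made from RNA of whole tumour tissue, so a level sums carcinoma and host cells, and fewer cells of a type cannot be told apart from less RNA per cell.

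In this pathway a phospholipase releases arachidonic acid from membranes, and the cyclooxygenases encoded by Ptgs1 and Ptgs2 convert it to prostaglandin H2. Ptgs1 is known as the constitutive enzyme and Ptgs2 as the one induced by cytokines and growth factors. Terminal synthases encoded by Ptges, Ptges2 and Ptges3 turn prostaglandin H2 into prostaglandin E2, and 15-hydroxyprostaglandin dehydrogenase, encoded by Hpgd, inactivates it. The receptors EP2 (Ptger2) and EP4 (Ptger4) raise cyclic AMP. In colorectal tumours this lipid is known for promoting growth and for restraining T cells, natural killer cells and dendritic cells.

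Ptgs2 was the only 1 of the 8 genes in which every CD43-KO tumour lay above every Vec tumour, which held for 2.08% of all genes tested. The promoter of Ptgs2 is shown beside those of Ptgs1, whose level differed little between the groups, and of Hpgd, the other gene with a DESeq2 call, because these 3 genes carry the findings below. All 8 genes matched the RefSeq promoter table of GRCm38.p6, in which a window runs from 250 bases before to 50 bases after the annotated start. The sequences read 5′ to 3′ on the strand of the gene, and capitals mark matches, on either strand, to TATAAA (the core promoter box of that name), CGTCA (core of the cyclic AMP response element), CACGTG (E-box), TTGCGCAA (C/EBP site), TGANTCA (AP-1 site) or the NF-kB consensus.
Ptgs2, chr1:150099781-150100080, plus strand: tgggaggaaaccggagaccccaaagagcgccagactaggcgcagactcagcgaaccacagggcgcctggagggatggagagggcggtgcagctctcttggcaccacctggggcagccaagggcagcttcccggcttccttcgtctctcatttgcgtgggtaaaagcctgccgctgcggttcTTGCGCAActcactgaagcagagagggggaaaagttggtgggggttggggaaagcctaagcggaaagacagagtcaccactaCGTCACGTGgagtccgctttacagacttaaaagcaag
Ptgs1, chr2:36230176-36230475, plus strand: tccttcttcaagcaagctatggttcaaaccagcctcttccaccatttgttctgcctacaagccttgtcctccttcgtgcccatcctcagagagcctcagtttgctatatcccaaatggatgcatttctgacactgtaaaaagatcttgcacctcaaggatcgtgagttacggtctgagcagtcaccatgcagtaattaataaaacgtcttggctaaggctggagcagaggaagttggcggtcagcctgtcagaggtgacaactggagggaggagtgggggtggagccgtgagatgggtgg
Hpgd, chr8:56294302-56294601, plus strand: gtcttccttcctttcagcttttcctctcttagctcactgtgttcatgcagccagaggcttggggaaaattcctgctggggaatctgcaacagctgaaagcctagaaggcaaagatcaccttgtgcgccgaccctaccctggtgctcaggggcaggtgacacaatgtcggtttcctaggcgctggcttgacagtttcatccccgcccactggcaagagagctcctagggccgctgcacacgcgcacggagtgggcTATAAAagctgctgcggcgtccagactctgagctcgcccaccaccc
In the Ptgs2 window the C/EBP match began 69 bases before the annotated start, and a cyclic AMP core and an E-box that overlap by 2 bases began 13 and 16 bases after it. The C/EBP letters were found in 0.183% of 32851 mouse promoter windows of the same length, the cyclic AMP core in 20.8%, the E-box in 7.15%, the AP-1 letters in 7.81% and the NF-kB consensus in 4.51%. No match to these 6 motifs lay in the Ptgs1 window. The Hpgd window held a TATA box, found in 13.6% of all windows, which began 4 bases after the RefSeq start and 29 bases before the start that GENCODE gives. A match is a stretch of letters and was not tested as a binding site.

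The 3′ untranslated region of Ptgs2 was rich in ATTTA, the pentamer at the core of AU-rich elements, which are known to shorten the life of many cytokine and enzyme messages. Its 2445 bases held 14 such pentamers, or 5.73 per kb, against a median of 1.35 per kb over 19921 mouse genes. This density was above that of 94.9% of the genes. The 30 bases with the most pentamers, 4 of them, are shown with ATTTA in capitals and lie at bases 12 to 41 after the stop codon.
Ptgs2, AU-rich stretch: ccatATTTATTTATTTAtgtgaagaATTTA
Hpgd held 4 pentamers in 838 bases (4.77 per kb) and Ptger4 held 5 in 1233 bases (4.06 per kb). Ptges3 held 4 in 1186 bases (3.37 per kb), Ptger2 held 6 in 1825 bases (3.29 per kb) and Ptges2 held 4 in 3444 bases (1.16 per kb). Neither Ptgs1 nor Ptges held any, in 921 and 3106 bases.

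Total counts ranged from 60751738 to 72114385 in Vec and from 44814061 to 62194418 in CD43-KO libraries. Spn itself was at 41.0 to 53.8 library-scaled counts (CPM) in Vec and at 6.81 to 33.6 CPM in CD43-KO tumours, without overlap. Of all genes tested, 3.5% were lower without overlap. Adjusted over all genes tested, Spn was not called by edgeR (adjusted p = 0.280), DESeq2 (adjusted p = 0.0982) or limma voom (adjusted p = 0.136). CD43-KO replicate 3 stood apart on the first principal component (100.02 against -45.6 to 51.2 in the other tumours). Its summed level of 10 skeletal muscle markers was 1340 CPM, and the rest of the CD43-KO group had 78.9 to 137.5 CPM. Epithelial and carcinoma markers were low in every tumour, at 8.28 to 17.0 CPM summed over 11 genes. Most of this sum came from Cdh1 (Vec mean 10.5 ± 2.4 CPM, CD43-KO mean 11.5 ± 3.3 CPM, with SD). Cdx2 was at 0 in all tumours and Krt8 at 0 to 0.149 CPM. Levels are CPM on TMM-scaled library sizes. The p-values of the group comparisons set the difference between groups against the spread between these tumours, and do not cover a spread between knockout lines.

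Within each group the 8 genes spanned a wide range of levels. Per kb of exon, which allows genes to be compared, Ptges3 was highest in Vec tumours at 142 ± 13.5 CPM per kb (SD, n = 4), followed by Ptges at 33.2 ± 3.31, Ptgs1 at 19.4 ± 2.06 and Ptges2 at 6.45 ± 0.949. Ptgs2 came next at 4.29 ± 1.183 CPM per kb, followed by Hpgd at 0.781 ± 0.273, Ptger2 at 0.592 ± 0.103 and Ptger4 at 0.542 ± 0.116. The ranges of the last 3 genes overlapped, and those of the 5 higher genes were separate from each neighbour. Between Ptges2 (lowest 5.711) and Ptgs2 (highest 5.707) the separation was nearly nil. In CD43-KO tumours the order was the same except that Ptgs2, at 8.07 ± 2.60 CPM per kb (SD, n = 5), came before Ptges2, at 5.72 ± 0.567. Ptges2 lay above Ptgs2 in 4 of 4 Vec tumours, although the 2 genes were nearly equal in Vec replicate 3. Ptgs2 lay above Ptges2 in 5 of 5 CD43-KO tumours, although the ranges of the 2 genes overlapped there.

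Ptgs2, which encodes the inducible cyclooxygenase (chromosome 1, 150100031 to 150108227, GRCm38, plus strand), was at 15.3, 15.1, 26.1 and 22.1 CPM in Vec replicates 1 to 4. In CD43-KO replicates 1 to 5 it was at 30.03, 30.4, 41.1, 56.1 and 27.2 CPM. The groups did not overlap, with the lowest CD43-KO tumour (27.2 CPM) just above the highest Vec tumour (26.1 CPM), and CD43-KO replicate 4 was the highest of all. The means were 19.7 ± 5.42 CPM (SD, n = 4) and 37.0 ± 11.9 CPM (SD, n = 5), a ratio of 1.88. The log2 fold change, CD43-KO over Vec, was 0.91 ± 0.25 (SE), with a 95% interval of 0.36 to 1.46. Adjusted over all genes tested, edgeR's quasi-likelihood test did not call it (adjusted p = 0.196), while DESeq2 (adjusted p = 0.0212) and limma voom with sample weights (adjusted p = 0.0484) did. A two-sided exact permutation test of its log2 CPM gave p = 0.00794, the smallest that the 126 splits of 9 tumours allow. For background, 5.59% of the genes tested had no overlap in either direction and 2.08% were higher without overlap, and edgeR called 0% of genes at an adjusted p of 0.05, DESeq2 3.35% and limma voom 3.08%. The DESeq2 call was lost without Vec replicate 1 (adjusted p = 0.130) or Vec replicate 2 (adjusted p = 0.111).

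Ptgs1, the constitutive cyclooxygenase (chromosome 2, 36230426 to 36252272, plus strand), was at 79.3, 80.7, 77.6 and 63.4 CPM in the Vec tumours. The CD43-KO tumours were at 82.6, 74.85, 68.9, 74.7 and 77.3 CPM, so 4 of 5 fell inside the Vec range. Its log2 fold change was 0.01 ± 0.09 (SE), with a 95% interval of -0.20 to 0.22 (edgeR adjusted p = 0.977). Its sign turned to -0.01 with limma voom, -0.07 without Vec replicate 4 and -0.03 without CD43-KO replicate 1. The log2 ratio of Ptgs2 to Ptgs1 CPM was -1.97 ± 0.49 in Vec and -1.08 ± 0.48 in CD43-KO tumours, given as a description.

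The 3 terminal synthases differed little between the groups. Ptges, the microsomal synthase that is induced together with Ptgs2 in many cells (chromosome 2, 30889471 to 30929863, minus strand), was at 133, 124, 117 and 147 CPM in Vec tumours. It was at 143, 125, 118.0, 153 and 135 CPM in CD43-KO tumours, and all 4 Vec values but the lowest lay inside the CD43-KO range. The log2 fold change was 0.05 ± 0.10 (SE), with a 95% interval of -0.18 to 0.28 (edgeR adjusted p = 0.828), and it was -0.01 without Vec replicate 3. Ptges2, a membrane-associated synthase (chromosome 2, 32395896 to 32405772, plus strand), was at 31.9, 30.2, 28.9 and 39.6 CPM in Vec tumours and at 26.2, 26.7, 33.2, 30.4 and 28.2 CPM in CD43-KO tumours. Here 3 of 5 CD43-KO tumours lay below every Vec tumour. This gave a log2 fold change of -0.17 ± 0.12 (SE), with a 95% interval of -0.43 to 0.09 (edgeR adjusted p = 0.483). Ptges3, a cytosolic synthase that is also the HSP90 co-chaperone p23 (chromosome 10, 128058954 to 128077272, plus strand), was at 314, 272, 343 and 326 CPM in Vec tumours. Its CD43-KO values of 278, 255, 361, 281 and 305 CPM spanned the whole Vec range. The log2 fold change was -0.08 ± 0.12 (SE), with a 95% interval of -0.34 to 0.17 (edgeR adjusted p = 0.744).

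**Figure D1:**
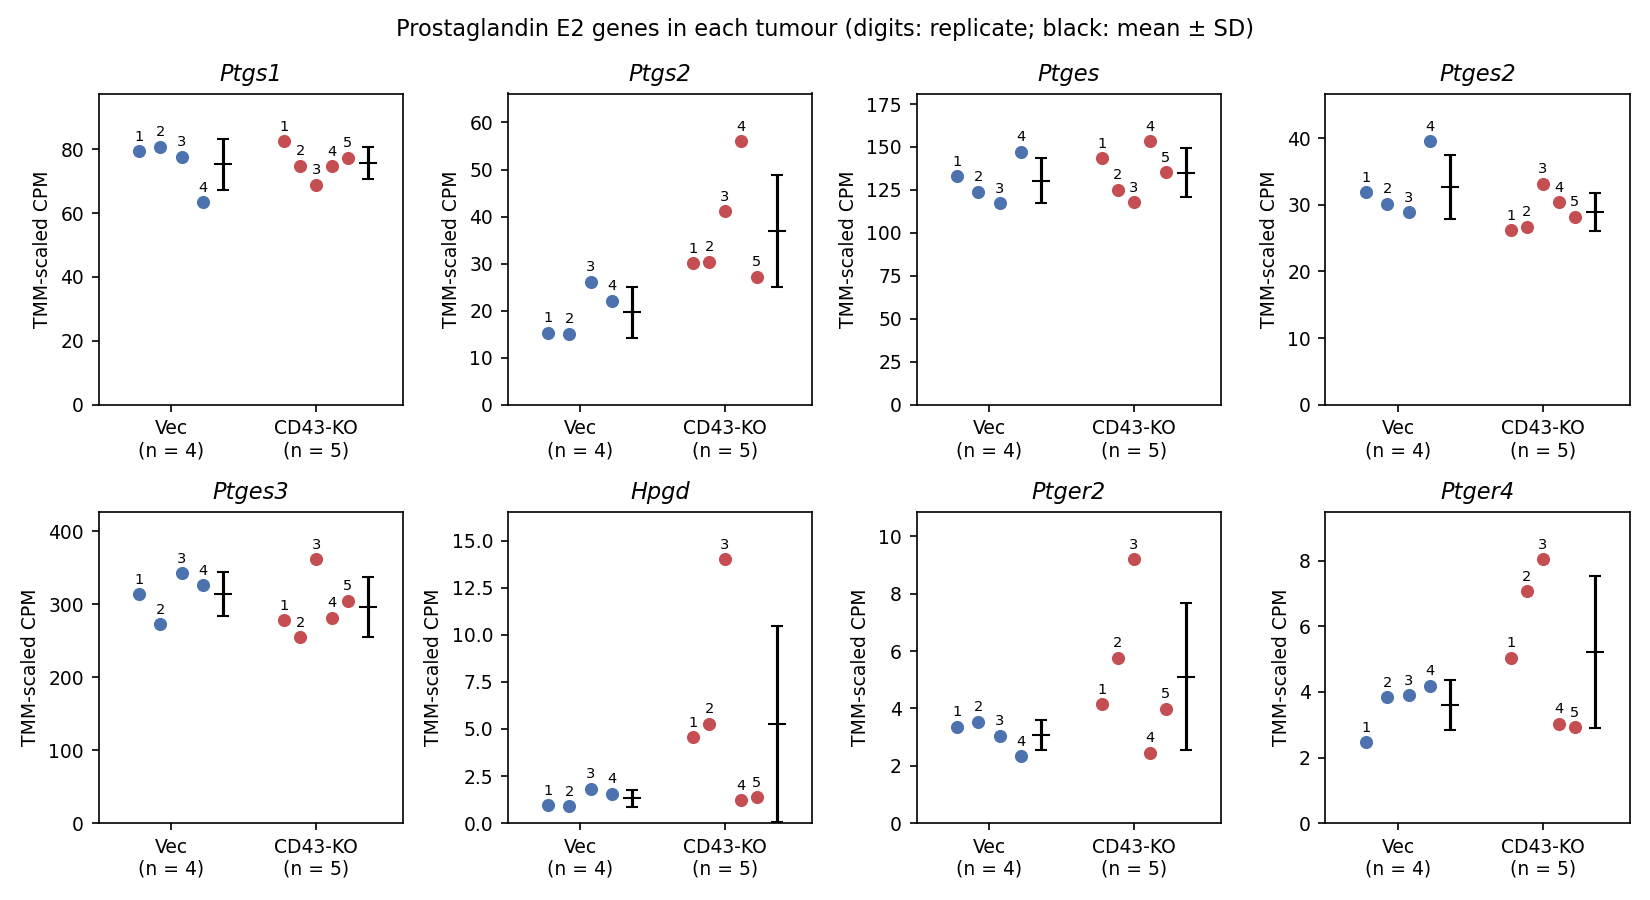
TMM-scaled CPM (y axes, from 0) of the 8 prostaglandin E2 genes in 4 Vec (blue) and 5 CD43-KO (red) tumours; each point is a tumour with its replicate number, and the black bars are mean ± SD. The Ptgs2 points of the groups do not overlap (15.1 to 26.1 against 27.2 to 56.1 CPM), the 4 genes Ptgs1, Ptges, Ptges2 and Ptges3 overlap widely, and Hpgd, Ptger2 and Ptger4 are highest in CD43-KO replicate 3.

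Hpgd, which encodes the enzyme that inactivates prostaglandin E2 (chromosome 8, 56294585 to 56321043, plus strand), split the CD43-KO tumours. It was at 0.963, 0.894, 1.83 and 1.57 CPM in Vec tumours, and at 4.55, 5.27, 14.0, 1.21 and 1.37 CPM in CD43-KO replicates 1 to 5. Replicates 1 to 3 of CD43-KO lay above every Vec tumour, and replicates 4 and 5 lay inside the Vec range. The means were 1.31 ± 0.459 CPM (SD, n = 4) and 5.28 ± 5.21 CPM (SD, n = 5), a ratio of 4.02. This gave a log2 fold change of 2.001 ± 0.70 (SE), with a 95% interval of 0.45 to 3.55 (edgeR adjusted p = 0.256), and the exact permutation p was 0.103. DESeq2 called it higher (adjusted p = 0.0351), and limma voom did not (adjusted p = 0.149). Ptgs2 and Hpgd were thus the 2 of 8 genes called higher by DESeq2, against 1.35% of all genes, and 0 of 8 were called lower. Both also had an unadjusted edgeR p under 0.05 (0.00411 and 0.0165), which 7.75% of all genes had in the higher direction. As the 8 genes were chosen with earlier results of these data known, these shares are given as a description. The DESeq2 call of Hpgd was lost when any 1 of 6 tumours was left out, namely Vec replicates 1, 2 and 4 and CD43-KO replicates 1, 2 and 3 (adjusted p from 0.0929 to 0.149). Leaving out the muscle-rich CD43-KO replicate 3, the edgeR log2 fold change of Hpgd was 1.23.

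The receptor genes had smaller differences in their means, and neither was called by any of the 3 tests. Ptger2, encoding EP2 (chromosome 14, 44988195 to 45003820, plus strand), was at 3.36, 3.55, 3.06 and 2.33 CPM in Vec tumours and at 4.14, 5.77, 9.20, 2.45 and 3.99 CPM in CD43-KO tumours. All CD43-KO tumours except replicate 4 lay above every Vec tumour. The log2 fold change was 0.73 ± 0.34 (SE), with a 95% interval of -0.02 to 1.48 (edgeR adjusted p = 0.334), and it was 0.41 without CD43-KO replicate 3. Ptger4, encoding EP4 (chromosome 15, 5206661 to 5244187, minus strand), was at 2.46, 3.84, 3.90 and 4.19 CPM in Vec tumours and at 5.04, 7.06, 8.03, 3.03 and 2.92 CPM in CD43-KO tumours. Here replicates 1 to 3 of CD43-KO lay above every Vec tumour, and replicates 4 and 5 lay inside the Vec range. This gave a log2 fold change of 0.53 ± 0.33 (SE), with a 95% interval of -0.19 to 1.26 (edgeR adjusted p = 0.443), and it was 0.32 without CD43-KO replicate 3. Counts behind these 2 receptors were low, from 126 to 458 per library. Ptger4 lies across an exon of Ttc33 on the other strand (82 shared exon bases) and a pseudogene, Gm15937 (1015 shared exon bases), and the strand setting of the counting is not stated in the sources used here.

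**Figure D2:**
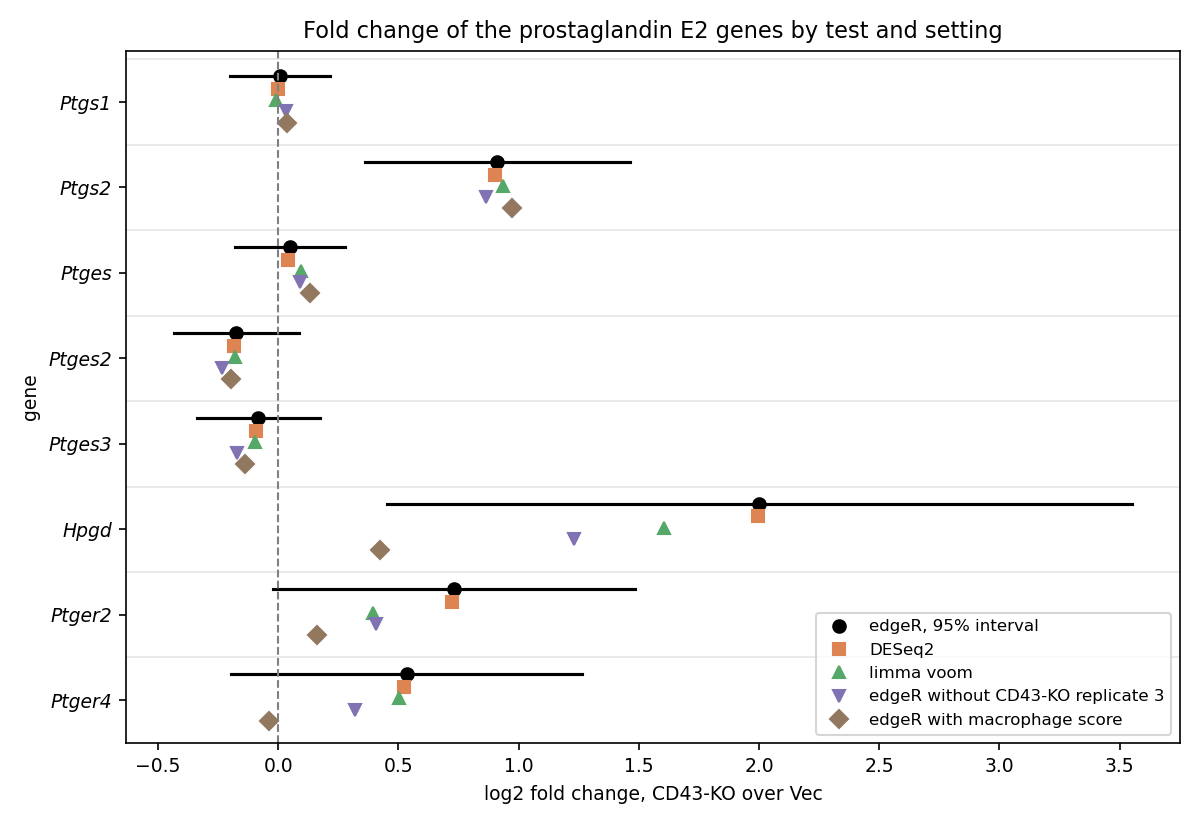
Log2 fold change (x axis, CD43-KO over Vec) of each gene (y axis) by edgeR with its 95% interval (black), DESeq2 (orange), limma voom (green), edgeR without CD43-KO replicate 3 (purple) and edgeR with the macrophage and monocyte score as a covariate (brown). Ptgs2 stays between 0.86 and 0.97 in all 5 settings, while Hpgd runs from 2.001 down to 0.42 and Ptger4 from 0.53 to -0.04.

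Macrophage and monocyte markers moved with Hpgd and the receptors. Their sum over 12 genes, all of them tested and all above 0 on the log2 scale, was 2893 to 4703 CPM in Vec tumours. In CD43-KO replicates 1 to 5 it was 5513, 6646, 10560, 2696 and 4116 CPM, so replicates 1 to 3 lay above and replicate 4 below every Vec tumour. Lyz2 made up much of this sum (2433 ± 781 CPM in Vec tumours, 4139 ± 2142 CPM in CD43-KO tumours). The covariate used next is another measure, which weights the 12 genes equally on the log2 scale. With the mean log2 CPM of these markers as a covariate, the edgeR log2 fold changes were 0.42 ± 0.25 (SE) for Hpgd, 0.16 ± 0.22 for Ptger2 and -0.04 ± 0.18 for Ptger4. The same fit gave 0.97 ± 0.27 (SE) for Ptgs2 (edgeR adjusted p = 0.181). That value was sensitive to CD43-KO replicate 4, which had the highest Ptgs2 and the lowest sum of macrophage markers of all 9 tumours. Without this tumour the covariate fit gave 0.42 ± 0.23 (SE) for Ptgs2 (edgeR adjusted p = 0.452), and without CD43-KO replicate 3 it gave 0.96 ± 0.26 (SE). The size of the Ptgs2 difference at a given macrophage level was thus sensitive to CD43-KO replicate 4. Only replicates 3 and 4 of CD43-KO were left out of the covariate fit, so its dependence on other tumours was not tested.

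**Figure D3:**
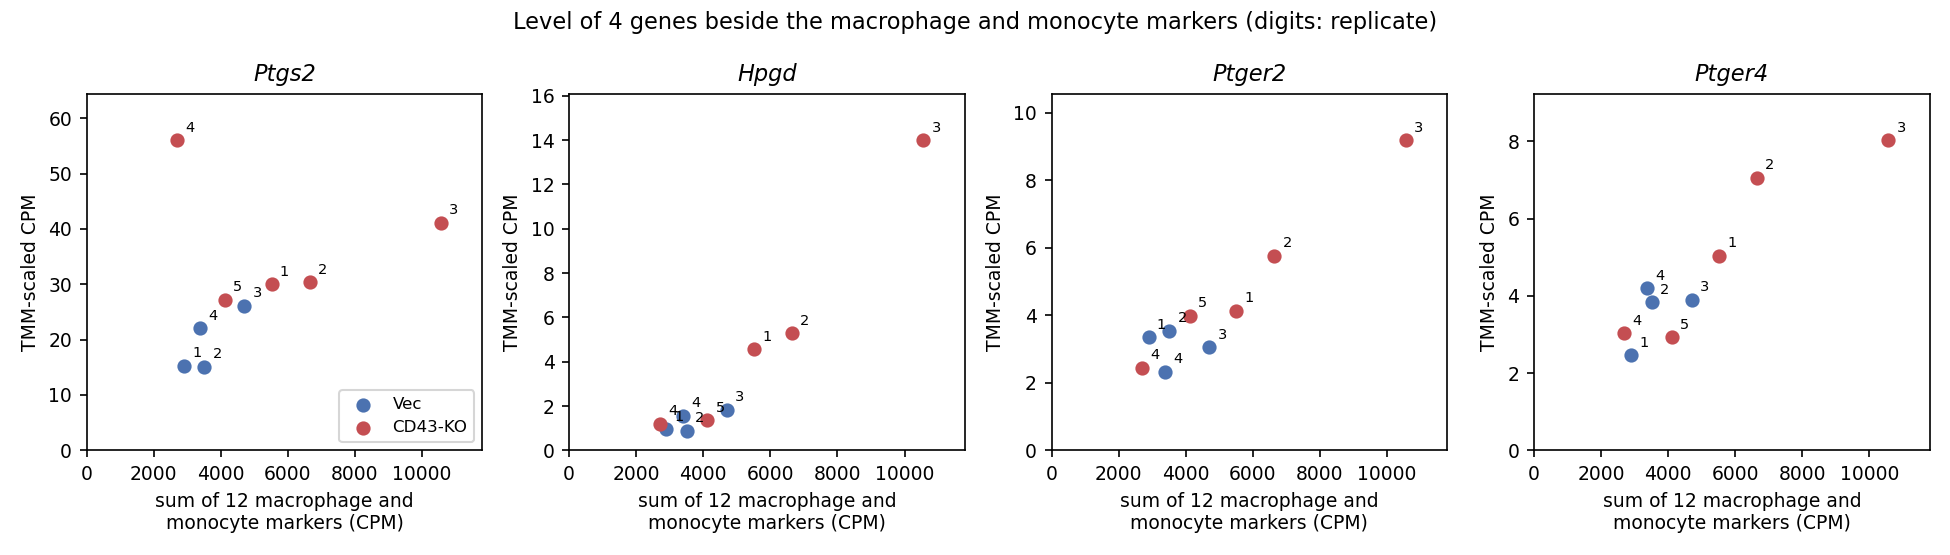
TMM-scaled CPM of Ptgs2, Hpgd, Ptger2 and Ptger4 (y axes, from 0) against the summed CPM of 12 macrophage and monocyte markers (x axes) in Vec (blue) and CD43-KO (red) tumours, with replicate numbers. CD43-KO replicate 4 has the highest Ptgs2 (56.1 CPM) at the lowest marker sum (2696 CPM), and CD43-KO replicate 3, with the highest marker sum (10560 CPM), has the highest Hpgd, Ptger2 and Ptger4. Lyz2 makes up much of the marker sum.

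Markers of other cell types were read beside these values, and their part in the results was not tested. T cell markers summed to 24.9 to 42.2 CPM over 10 genes in Vec tumours and to 60.2, 102, 143, 25.5 and 37.2 CPM in CD43-KO replicates 1 to 5. As for Hpgd, the sums of CD43-KO replicates 1, 2 and 3 exceeded the Vec range, and those of replicates 4 and 5 fell inside it. Fibroblast markers, from cells known to express Ptgs2 and Ptges, summed to 3143 to 4392 CPM over 11 genes in Vec and to 3757, 6049, 4228, 2447 and 2187 CPM in CD43-KO tumours. Col3a1 made up much of this sum (2167 ± 638 CPM in Vec tumours, 1400 ± 544 CPM in CD43-KO tumours), 8 of the 11 markers lay above 0 on the log2 scale, and Pdgfra was at 34.7 ± 6.63 and 34.95 ± 2.098 CPM. Neutrophil marker sums overlapped between the groups, at 11.6 to 85.95 and 23.0 to 96.4 CPM over 10 genes. Of the 6 tested, 4 lay above 0 (54% of all genes) with a median of 0.61. Csf3r was higher without overlap (2.08% of all genes), at 4.15 ± 0.55 and 11.4 ± 6.08 CPM (DESeq2 adjusted p = 0.00207, edgeR adjusted p = 0.167). S100a8 (18.4 ± 14.1 and 15.6 ± 15.3 CPM) and S100a9 (18.3 ± 15.2 and 14.0 ± 14.9 CPM) had lower means in CD43-KO tumours. Mast cell markers, from cells rich in Ptgs1, were at 6.59 to 15.98 CPM over 8 genes in Vec and at 3.35 to 28.1 CPM in CD43-KO tumours. Platelet markers, with Gp6 at 0 in all tumours, were at 36.6 to 48.5 and 35.1 to 146 CPM over 8 genes. Most of this sum came from Pf4 (Vec mean 31.7 ± 5.45 CPM, CD43-KO mean 62.9 ± 45.2 CPM). Itga2b had a lower CD43-KO mean (5.48 ± 1.24 CPM, Vec mean 6.30 ± 1.09 CPM). The means of Gp1bb (Vec 2.86 ± 1.17, CD43-KO 3.26 ± 2.89 CPM) and Ppbp (Vec 0.542 ± 0.172, CD43-KO 0.673 ± 0.324 CPM) differed little. Fat markers were at 756 CPM over 8 genes in CD43-KO replicate 3, the tumour with the highest Hpgd, Ptger2 and Ptger4, and at 32.6 to 82.9 CPM in the other 8 tumours.

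Across the 9 tumours, Hpgd and Ptger4 were the 1 pair of 28 whose Pearson correlation passed after adjustment over the 28 tests. They had Pearson's r = 0.910 (exact permutation p = 0.000521, adjusted p = 0.0146) and Spearman's rho = 0.867 (exact permutation p = 0.00451, adjusted p = 0.126). Without CD43-KO replicates 2 and 3, the 2 tumours farthest from the median Hpgd, r was 0.732, and after centring each group on its mean it was 0.907. The relation of Hpgd and Ptger2 (r = 0.840, exact permutation p = 0.00646, adjusted p = 0.0904; rho = 0.583, exact permutation p = 0.108) fell to 0.308 without the same 2 tumours and so rested on them. That of Ptger2 and Ptger4 (r = 0.752, exact permutation p = 0.0180, adjusted p = 0.126; rho = 0.533, exact permutation p = 0.147) rested on them too, with r = 0.07 without them. Ptgs1 and Ptges2 went in opposite directions (r = -0.808, exact permutation p = 0.0115, adjusted p = 0.107; rho = -0.617, exact permutation p = 0.0857), but r was -0.07 without Vec replicate 4 and CD43-KO replicate 3. Ptgs2 and Hpgd had r = 0.50 (exact permutation p = 0.166, adjusted p = 0.666; rho = 0.600, exact permutation p = 0.0968), and r was 0.878 without Vec replicate 2 and CD43-KO replicate 4. Without these 2 tumours r was also higher for Ptgs2 with Ptger4 (0.835, from 0.350 over 9 tumours) and with Ptger2 (0.746, from 0.225). After centring on the group means over all 9 tumours, r of Ptgs2 was 0.09 with Hpgd, 0.06 with Ptger4 and -0.33 with Ptger2. Each group alone held fewer than 6 tumours, so no relation within a group was computed.

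**Figure D4:**
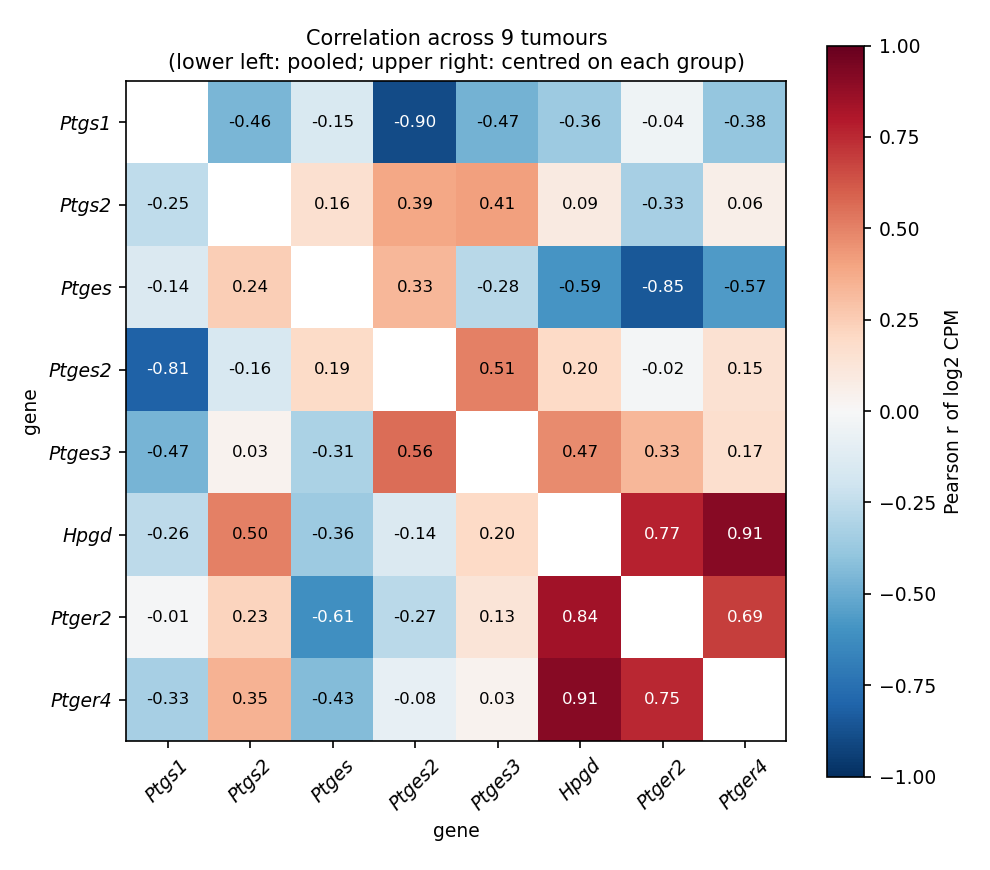
Pearson's r of log2 CPM for each pair of the 8 genes (both axes) over 9 tumours, pooled in the lower left and centred on each group's mean in the upper right, on a colour scale from -1 to 1. Hpgd, Ptger2 and Ptger4 have r of 0.75 to 0.91 pooled and 0.69 to 0.91 centred, but without CD43-KO replicates 2 and 3 the pooled r of Ptger2 is 0.308 with Hpgd and 0.07 with Ptger4.

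The genes with the most similar pattern to each member were ranked by Pearson's r over the 9 tumours among 10706 genes with a mean of at least 5 CPM. They are the highest of many values and are given as a description, with no test. Those nearest to Ptgs2 were Lhx6 (r = 0.908), Rtn4ip1 (0.907), Ccl3 (0.904), Kmt5a (0.897) and Mms22l (0.893). Ccl3, which encodes a chemokine of activated myeloid cells, was at 5.61 ± 2.50 CPM in Vec tumours and 9.75 ± 3.67 CPM in CD43-KO tumours. Nearest to Hpgd were the T cell chemokine genes Ccl5 (r = 0.990) and Cxcl9 (0.985). Ccl5 was at 16.4 ± 6.25 and 59.3 ± 56.96 CPM. Ptger4 was nearest to Lck (r = 0.990), which encodes a kinase that acts at the T cell receptor and whose counts are uncertain because a second copy is named in the files, and to Fndc1 (0.986), and Ptger2 to Gda (0.986) and Fli1 (0.981). The genes nearest to Ptges2 were Tspo (0.996) and Ift27 (0.982), those nearest to Ptgs1 were Ythdc1 (0.971) and Mdc1 (0.967), those nearest to Ptges were Ttll12 (0.936) and Arhgap32 (0.924), and those nearest to Ptges3 were Ppp1ccb (0.973) and mt-Rnr1 (0.963).

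Of the genes that act before and beside the 8, the exporter Abcc4 was higher without overlap, as were 2.08% of all genes tested. Abcc4 encodes MRP4, a pump that can carry prostaglandin E2 out of cells. It was at 13.1, 12.9, 11.9 and 10.9 CPM in Vec tumours and at 18.8, 21.1, 15.2, 16.4 and 17.1 CPM in CD43-KO tumours, with no overlap. The log2 fold change was 0.54 ± 0.12 (SE), and it was 0.58 without CD43-KO replicate 3. DESeq2 called Abcc4 (adjusted p = 0.00426, against 1.35% of all genes called higher) and edgeR did not (adjusted p = 0.160). The uptake transporter Slco2a1 was at 1.36 to 6.85 CPM in Vec tumours and 3.67 to 8.91 CPM in CD43-KO tumours (log2 difference 0.54 ± 0.41, edgeR adjusted p = 0.541). Of the 6 genes listed for prostaglandin transport 4 were tested, and all 4 lay above 0 on the log2 scale (median 0.54), against 54% of all genes tested and a median of 0.03. The others were Slco3a1 (12.2 ± 1.62 and 16.4 ± 4.55 CPM) and Slco4a1 (1.03 ± 0.394 and 1.58 ± 0.409 CPM).

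Arachidonate release genes showed small differences. Of 17 tested genes, 15 lay above 0 on the log2 scale (54% of all genes) with a median of 0.12. DESeq2 called none of the 17, against 3.35% of all genes. Without CD43-KO replicate 3, 11 lay above 0 and the median was 0.08. Pla2g4a, the cytosolic phospholipase A2 that frees arachidonic acid for prostaglandin synthesis, was at 49.3 ± 4.90 CPM in Vec tumours and 57.4 ± 5.06 CPM in CD43-KO tumours (log2 difference 0.22 ± 0.10, edgeR adjusted p = 0.325). Faah, a hydrolase of anandamide that also frees arachidonic acid, was higher without overlap, as were 2.08% of all genes. It was at 7.57 to 8.14 CPM in Vec tumours and 8.53 to 10.5 CPM in CD43-KO tumours (log2 difference 0.31 ± 0.11, edgeR adjusted p = 0.262). Pla2g7, an acetylhydrolase of platelet-activating factor, was at 159 ± 11.7 and 202 ± 54.9 CPM.

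Of 14 tested genes for other prostanoid synthases and reductases, 8 lay below 0, near the 46% of all genes, with a median log2 fold change of -0.17. At an unadjusted edgeR p under 0.05, 4 of them were lower and 0 higher, against 7.63% lower over all genes. Akr1b8, an aldo-keto reductase, was at 40.8 to 53.2 CPM in Vec tumours and 35.1 to 37.3 CPM in CD43-KO tumours without overlap, as in 3.5% of all genes in this direction. Its log2 fold change was -0.36 ± 0.09 (SE), which DESeq2 called (adjusted p = 0.0204, against 2% of all genes called lower) and edgeR did not (adjusted p = 0.191). Ptgr1 and Zadh2, which encode reductases that act on prostaglandins after the Hpgd step, had lower means in CD43-KO tumours. Ptgr1 was at 39.3 ± 5.38 against 31.8 ± 3.37 CPM (edgeR adjusted p = 0.279), and Zadh2 at 69.1 ± 5.61 against 59.1 ± 2.07 CPM (edgeR adjusted p = 0.262).

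None of the 7 tested genes listed as other prostanoid receptors had an unadjusted edgeR p under 0.05, against 15.4% of all genes in either direction. Ptgir, the prostacyclin receptor, was at 1.76 ± 0.629 CPM in Vec tumours and 3.37 ± 1.96 CPM in CD43-KO tumours. Ptgdr2, a prostaglandin D2 receptor, was at 0.262 ± 0.197 and 0.179 ± 0.113 CPM. Ptger3, encoding EP3, was at 0.346 ± 0.161 and 0.484 ± 0.433 CPM. Among 11 tested lipoxygenase and leukotriene genes 8 lay above 0 (54% of all genes) with a median of 0.43, and with the macrophage covariate the median was -0.13. Lta4h, which makes leukotriene B4, was lower without overlap, as were 3.5% of all genes. It was at 83.9 to 112.6 CPM in Vec tumours and 75.4 to 83.3 CPM in CD43-KO tumours (log2 difference -0.27 ± 0.09, edgeR adjusted p = 0.256). The receptor gene Ltb4r1 was at 9.12 ± 2.22 and 14.4 ± 6.09 CPM, and Alox15 at 0.800 ± 0.217 and 1.145 ± 0.252 CPM.

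Genes that carry the signal of EP2 and EP4 through cyclic AMP split evenly, with 12 of 25 tested genes above 0, 13 below and a median of -0.00216. Without CD43-KO replicate 3, 17 lay above 0 (51.9% of all genes) with a median of 0.06. The number higher at an unadjusted edgeR p under 0.05 was 1 of 25 with all tumours (7.75% of all genes) and 5 of 25 without that tumour (8.67% of all genes). The number lower was 3 of 25 with all tumours (7.63% of all genes) and 3 of 25 without that tumour (10.6% of all genes). Prkar1a, a regulatory subunit of protein kinase A, was lower without overlap (3.5% of all genes) and called lower by DESeq2 (2% of all genes). It was at 477 to 574 CPM in Vec tumours and 426 to 462 CPM in CD43-KO tumours (log2 difference -0.26 ± 0.08, DESeq2 adjusted p = 0.0443, edgeR adjusted p = 0.235). Gnas, the stimulatory G protein subunit, was at 1199 ± 160 and 927 ± 133 CPM, and the catalytic subunit gene Prkaca at 118 ± 13.2 and 96.6 ± 10.8 CPM, with edgeR adjusted p of 0.265 and 0.272.

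The cytokine genes Il1a, Il1b and Tnf, whose products are known to induce Ptgs2, had higher means in CD43-KO tumours. Il1a was at 1.80, 1.97, 3.15 and 2.22 CPM in Vec tumours and at 5.47, 4.78, 6.57, 6.33 and 2.42 CPM in CD43-KO tumours (log2 difference 1.16 ± 0.30, DESeq2 adjusted p = 0.0124, edgeR adjusted p = 0.192). Il1b was at 9.60, 12.1, 19.4 and 19.1 CPM in Vec tumours and at 47.7, 44.4, 93.4, 41.5 and 11.7 CPM in CD43-KO tumours (log2 difference 1.67 ± 0.49, edgeR adjusted p = 0.216). CD43-KO replicate 5 lay inside the Vec range for both cytokines, and its Ptgs2 (27.2 CPM) was just above the highest Vec tumour (26.1 CPM). Replicate 4 had high Il1a and Il1b at a low macrophage sum. A link of these cytokines to Ptgs2 was not tested. Tnf was at 0.831 ± 0.235 and 1.56 ± 0.694 CPM, and Tlr2, a receptor for bacterial lipoproteins, at 30.2 ± 4.49 and 49.7 ± 16.1 CPM. Over the 28 inducers and regulators of Ptgs2, 20 lay above 0 (54% of all genes) with a median of 0.10. At an unadjusted edgeR p under 0.05, 6 of the 28 were higher (7.75% of all genes) and 0 lower (7.63%). DESeq2 called 1 of the 28 higher, Il1a, which is near the 1.35% of all genes.

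Myeloid genes tied to prostaglandin E2 in tumours had a median log2 fold change of 0.97, with 13 of 15 tested genes above 0 (54% of all genes) and 6 higher at an unadjusted edgeR p under 0.05 (7.75% of all genes). Without CD43-KO replicate 3 the median was 0.74 and 14 lay above 0, and with the macrophage covariate the median was 0.64. The medians of all genes in these 3 fits were 0.03, 0.01 and 0.00361. Nos2, whose product makes nitric oxide in activated macrophages, was at 34.3 ± 7.28 CPM in Vec tumours and 67.9 ± 26.7 CPM in CD43-KO tumours, and the arginase gene Arg2 at 0.927 ± 0.186 and 3.15 ± 2.63 CPM, with DESeq2 adjusted p of 0.0249 and 0.0416 and edgeR adjusted p of 0.210 and 0.245. DESeq2 called 2 of the 15 genes higher, against 1.35% of all genes. Osm, a cytokine of the interleukin 6 family, was at 3.14 ± 0.618 and 5.74 ± 2.02 CPM. Type 1 dendritic cells and their attractants are known to be restrained by prostaglandin E2. Of their 13 genes, 11 lay above 0 (54% of all genes) with a median of 0.60, and the median was 0.37 without CD43-KO replicate 3 and 0.03 with the macrophage covariate. Snx22 was at 2.01 ± 0.445 and 3.26 ± 0.923 CPM and Naaa at 74.3 ± 9.21 and 95.5 ± 24.1 CPM. No gene of this list was called by DESeq2, against 3.35% of all genes.

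**Figure D5:**
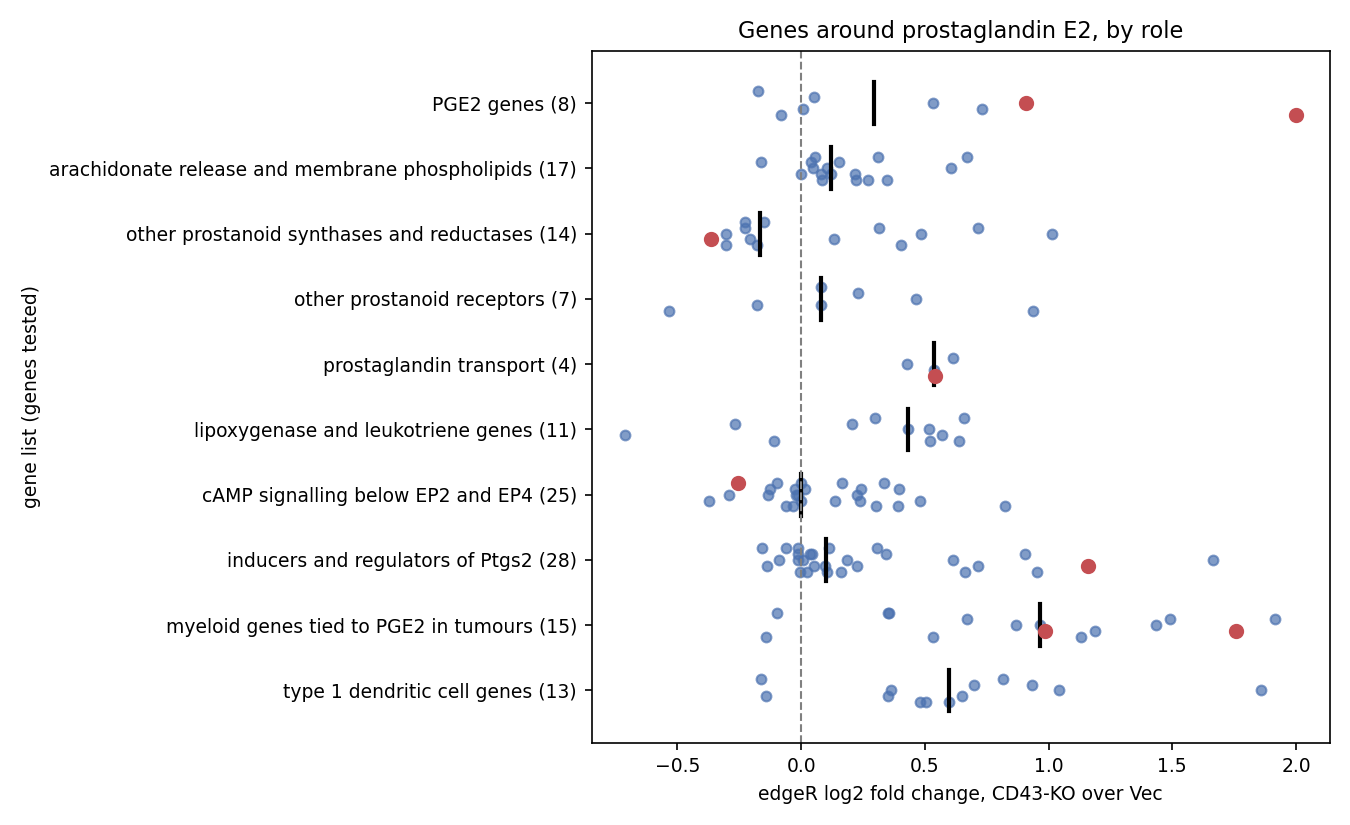
EdgeR log2 fold change (x axis, CD43-KO over Vec) of every tested gene of 10 lists around prostaglandin E2 (y axis, number tested in brackets), with black bars at the list medians and red points for genes with a DESeq2 adjusted p under 0.05. The 4 transport genes lie near 0.54, the cyclic AMP genes centre on 0, and the myeloid genes have a median of 0.97.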

How the data were processed

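RNA of whole tumours (4 Vec, 5 CD43-KO) was sequenced. The authors deposited whole-number counts per gene name, 1 table per tumour, per the file headers. HISAT2 2.1.0, StringTie 1.3.5, DESeq2 and GRCm38 are named in the submitters' processing notes, without role or order. The counter, annotation and strand setting are not stated in the sources used here. Sample labels gave no batch or pairing, and 0 columns lacked a sample.

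Genes were kept by filterByExpr (minimum count 10, minimum total 15). The main test was edgeR 4.0.16 (R 4.3.3), TMM scaling, robust quasi-likelihood F test on the group, with Benjamini-Hochberg adjustment over 18243 names and a threshold of 0.05. SEs are the log2 fold change over the square root of F. Alternatives were DESeq2 1.42.0, limma 3.58.1 voom with sample weights, other scaling and filters, a macrophage covariate and each tumour left out. No member has a copy-suffixed name, so adding copies was not run. Log2 CPM used a prior count of 2. Lengths are exon unions of GENCODE for GRCm38. The fit was tested on simulated data. Correlation tests enumerated all orders of the 9 tumours.

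The members and lists were chosen with earlier results of these data known. Outside the 8 genes, the named genes were Spn, the 3 genes of each list with the smallest edgeR p, any other list gene without overlap, and Il1b, Tnf, Pla2g4a, Slco2a1, Abcc4, Ptger1 and Ptger3. The values of Ptger1 are not reported here. Likeness skipped pseudogenes and predicted, clone-named, copy-suffixed and antigen receptor names. Marker lists covered macrophages, neutrophils, mast cells, platelets, T cells, fibroblasts, endothelium, epithelium, muscle and fat. Endothelial markers summed to 121 to 144 CPM in Vec and 97.6 to 201 CPM in CD43-KO tumours.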

Additional observations from a re-analysis of the deposited data

Results flagged for a closer look

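Of 98 groups of values checked (the 8 genes, 31 other named genes and 10 marker sums, in Vec and in CD43-KO), 4 held a tumour far from the others by Dixon's test, where chance flags about 1 in 20. None of the 8 prostaglandin E2 genes was among them. Zadh2 was at 60.7 CPM in Vec replicate 3 against 71.2 to 72.3 CPM in the other Vec tumours. Nos2 was at 23.45 CPM in Vec replicate 2 against 37.2 to 38.9 CPM. In CD43-KO replicate 3 the muscle marker sum was 1340 CPM and the fat marker sum 755.6 CPM, whereas the rest of its group had 78.9 to 137.5 and 32.6 to 50.9 CPM. That tumour also had the highest Hpgd, Ptger2 and Ptger4.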

How the results depend on the processing

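Ptgs2 kept its direction in all 17 alternatives run, with log2 fold changes from 0.42 to 1.07, and so did Ptges2 (-0.29 to -0.07), Ptges3 (-0.17 to -0.03), Hpgd (0.30 to 2.26) and Ptger2 (0.16 to 0.91). It crossed the threshold with DESeq2 (0.90) and limma voom (0.94), and Hpgd with DESeq2 (1.995). Signs turned for Ptgs1 with limma voom (-0.00863) and without single tumours (range -0.07317 to 0.04156), for Ptges without single tumours (-0.00719 to 0.108), and for Ptger4 with the macrophage covariate (-0.03992; leaving out CD43-KO replicate 3, -0.05164; leaving out replicate 4, -0.1523). The last 2 fits, and DESeq2 without single tumours, were chosen after seeing the data. DESeq2 without single tumours gave 0.70 to 1.06 for Ptgs2 and 1.24 to 2.25 for Hpgd. Genes called over the whole table were 0 higher and 0 lower with edgeR, 247 and 365 with DESeq2, and 190 and 372 with limma voom. Without single tumours edgeR called 0 to 8 higher and 0 to 21 lower, without a filter 1 lower, and with the covariate and without CD43-KO replicate 3, 1 lower. An unadjusted edgeR p under 0.05 was met by 2806 genes (15.4%). A prior count of 0.5 moved no exact permutation result across 0.05. The cause of these shifts was not tested. Counts per library were 60 to 603 for Hpgd and 126 to 458 for the receptors.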

Other observations

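A pair of noncoding genes near Ptgs2 was read beside it. Ptgs2os lies on the other strand, with 67 bases between its annotated start and that of Ptgs2, and had a mean of 1.496 ± 0.201 CPM in Vec tumours and 1.74 ± 0.227 CPM in CD43-KO tumours (exact permutation p = 0.159, n = 4 and 5). Ptgs2os2, farther downstream, was at 3.01 ± 1.38 and 4.66 ± 1.11 CPM (exact permutation p = 0.0794, n = 4 and 5). Both were far less abundant than Ptgs2, also per kb of exon (0.346 and 1.73 CPM per kb in Vec tumours, against 4.29).

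The log2 ratio of Ptgs2 to Hpgd CPM, a description of synthesis against breakdown transcripts, was nearly constant in Vec tumours (3.82 to 4.08). In CD43-KO replicates 1 to 5 it was 2.72, 2.53, 1.55, 5.54 and 4.31, so replicates 1 to 3 lay below and replicates 4 and 5 above every Vec tumour.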
